A study of Mus musculus with 16 samples.

Results

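The comparison described here asked what a stimulatory antibody against CD40 changed in CD4+ T cells that had met their antigen only for a short time. Its members were chosen by title and make up 5 of the 16 arrays of the series: 2 arrays of T cells from recipients given FGK45.5, the anti-CD40 antibody (replicates 1 and 2), and 3 arrays from recipients given PBS (replicates 1 to 3). All recipients of these 5 arrays were B10.BR mice of the genotype Ii-rTA+ TIM+, in which doxycycline switches on a peptide of moth cytochrome c. They received doxycycline from the day before cell transfer until the day of transfer, and the antibody or PBS was injected into the peritoneum on the day before transfer. The transferred cells were lymph node cells of AND mice, whose transgenic T cell receptor recognises that peptide, and carried the CD90.1 marker. At 60 h CD4+CD90.1+ cells were sorted from subcutaneous lymph nodes, and the labels give an age of 6 to 8 weeks. The other groups used here had no antigen (Ii-rTA- TIM+ recipients, 2 anti-CD40 and 3 PBS arrays) or persistent antigen (Ii-rTA+ TIM+ recipients with doxycycline throughout, 3 anti-CD40 and 3 PBS arrays). The arrays without antigen are titled as without doxycycline, whereas the treatment protocol, where it is given for them, lists doxycycline throughout. The labels do not say whether cells of several animals were pooled, and the recipients kept their own lymphocytes.

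CD40 is a receptor of the tumour necrosis factor receptor family on dendritic cells, B cells and macrophages. Activated CD4+ T cells engage it with CD40 ligand, and dendritic cells stimulated through it raise antigen presentation, costimulatory ligands and cytokines such as interleukin 12. T cells that receive antigen together with such signals are known to divide more and to become effector cells, whereas antigen on resting dendritic cells is a textbook route to tolerance. The measurements below are of the T cells, not of the cells that carry CD40, and in these arrays Cd40 itself was near or below the median probe set, at a log2 intensity of 4.18 and 4.18 with anti-CD40 and 4.25, 4.34 and 4.51 with PBS.

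All values are log2(intensity + 1) of the deposited array intensities, so that a difference of 1 is close to a 2-fold change in bright genes and understates the change in dim ones. The median intensity per array was 18.2 to 21.3. Arrays with the same replicate number deviated together from their group means, and Xist was lower and the Y-linked Eif2s3y higher in replicate 1 of every group than in replicates 2 and 3 (Xist 5.10 to 7.16 against 9.92 to 11.31, Eif2s3y 8.86 to 9.93 against 2.61 to 3.09). In these genes replicate 1 differed from replicates 2 and 3 as male cells differ from female cells, so the replicate number also carries that difference. The labels leave it unsaid whether replicates are separate animals. The p-values therefore reflect only how much these arrays vary, and some of that variation may be technical. PBS replicate 3 has no anti-CD40 partner. Differences were therefore estimated with limma both without a block and with the replicate number as a block, always over 18193 genes and all 16 arrays, and adjusted after Benjamini and Hochberg with 0.05 as the threshold. A gene is said to have risen or fallen when it passed with the block, and the text says which genes also passed without it. Such a call does not mean that the arrays of the 2 groups were separate. The single-gene differences are those of the limma fit with the block, ± standard error. The sorted cells carried T cell transcripts: Cd3d was at 10.56 and 11.80 with anti-CD40 and at 11.31, 12.21 and 11.37 with PBS, and Cd4, which chose the cells, at 7.66 and 7.06 against 8.00, 7.52 and 7.68.

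With anti-CD40, genes of DNA replication, mitosis, ribosome assembly and effector function were higher, led by Gzmb, Emp1, Il21 and Dscc1, and genes of resting T cells such as St8sia6, Bach2 and Foxp1 were lower. In bulk arrays fewer cells of a type and less RNA per cell cannot be told apart. Without a block 116 genes passed (0.638% of all tested), 95 higher (0.522%) and 21 lower (0.115%). With the block 1912 passed (10.5%), 1380 higher (7.59%) and 532 lower (2.92%), and these included all 116. All 1380 increases and all 532 decreases had the same sign in the replicate 1 pair and in the replicate 2 pair. The blocked fit uses these same pairs, so this describes the calls and is no separate check. Of all 18193 genes 5139 were higher and 6623 lower in both pairs. At an unadjusted p under 0.05 the counts were 1691 without and 3670 with the block. The arrays of both groups did not overlap for 1918 genes that were higher (10.5%) and 2019 that were lower (11.1%). A random order of 2 arrays against 3 would give shares close to these. Separate groups in a gene are therefore given below as a description and no test. The median difference over all genes was -0.03 in both fits. After cyclic loess scaling the blocked count split into 1315 higher and 805 lower, and after quantile normalization into 1102 and 788. The count without a block depended on single arrays. It was 0 without anti-CD40 replicate 1, and 46, 21 and 12 without PBS replicates 1, 2 and 3. Arrays of the other regimes share the estimate of the spread, and the count was 48 and 75 without PBS replicates 1 and 3 of no antigen, 57 without PBS replicate 3 of persistent antigen, and 49 and 64 without anti-CD40 replicates 1 and 3 of persistent antigen. The blocked count was 553 without anti-CD40 replicate 1.

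**Figure D1:**
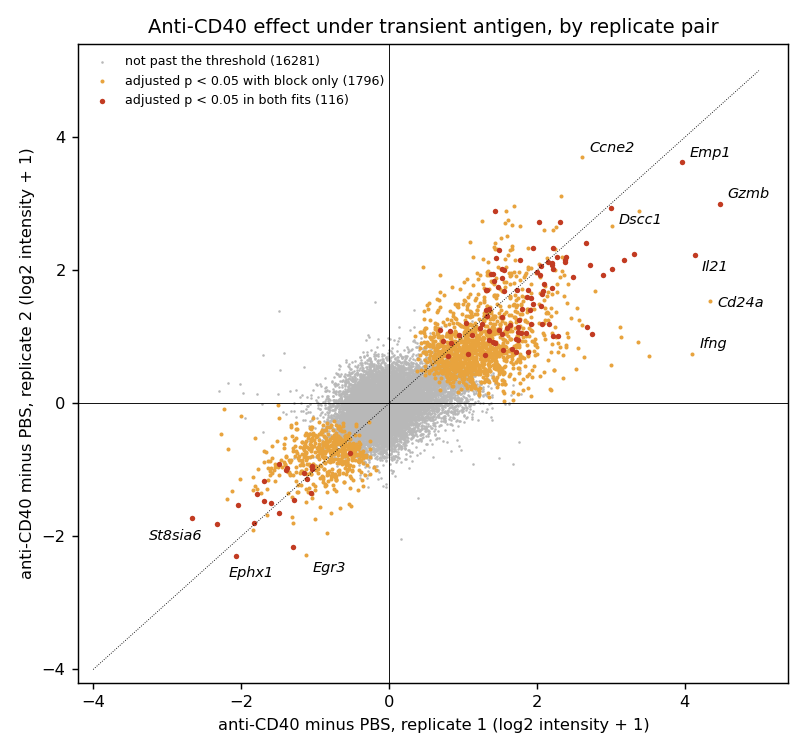
Each point is 1 of 18193 genes, with the anti-CD40 minus PBS difference of the replicate 1 pair on the x axis and of the replicate 2 pair on the y axis, in log2(intensity + 1). Genes past the threshold in both fits are red (116) and those past it with the block only are orange. All called genes lie in the upper right or lower left quadrant, with Gzmb and Emp1 far up and St8sia6 and Ephx1 far down. The blocked fit uses these same pairs, so their place in these quadrants is no separate check.

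Genes of DNA replication formed the most uniform group of increases. Cdc6, which loads the replicative helicase onto origins, had log2 intensities of 8.40 and 7.53 with anti-CD40, against 6.08, 4.42 and 3.95 with PBS. Both anti-CD40 arrays lay above all PBS arrays, and within PBS replicate 1 was the highest. Cdc6 rose by 3.04 ± 0.31 (adjusted p = 1.17e-05, and 0.0681 without the block). Cdt1, its partner in origin licensing, was at 9.89 and 9.92 against 7.95, 7.58 and 7.45. The groups were tight and far apart, and Cdt1 rose by 2.20 ± 0.21 (adjusted p = 7.82e-06) and passed without the block as well (adjusted p = 0.00785). Orc6, a subunit of the origin recognition complex, was at 8.22 and 7.87 against 5.83, 5.67 and 5.61 and also passed in both fits. Dscc1, part of a clamp loader that acts in sister chromatid cohesion, was at 7.34 and 6.38 against 4.34, 3.44 and 3.70. Its rise of 3.14 ± 0.22 had the smallest adjusted p of the genes given here (2.33e-07, and 0.0187 without the block), although the PBS arrays lay below the median probe set (4.37), where the size is not exact. The nuclease gene Dna2 rose by 2.68 ± 0.26, the helicase subunit gene Mcm5 by 2.39 ± 0.30, the GINS subunit gene Gins1 by 2.32 ± 0.26, and Uhrf1, which maintains DNA methylation at replication forks, by 2.41 ± 0.33. Of 39 measured DNA replication genes 36 rose and 0 fell with the block, against 7.59% of all genes, and 10 rose without it. This list and those below were chosen with earlier results of these data known, so their counts are descriptions and no test. The median difference was 1.76, and 1.56 and 1.74 in the replicate 1 and replicate 2 pairs. The 3 that did not pass, named here after their values were seen, were Orc1 (0.27), Rpa1 (0.26) and E2f1 (0.10).

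Promoter windows of 2 replication genes and 2 mitosis genes are shown because the groups differ in how often they hold certain letters, and were picked after the matches were seen. They come from RefSeq (GRCm38.p6) and run from 250 bases before to 50 bases after the annotated start, written 5′ to 3′ on the gene's strand. Capitals in Cdc6 (chr11:98907901-98908200, plus strand) and Cdt1 (chr8:122567765-122568064, plus strand) mark letters known to bind E2F factors, which drive S phase genes. Capitals in Bub1 (chr2:127831810-127832109, minus strand) and Cdk1 (chr10:69352863-69353162, minus strand) mark the cell cycle homology region (CHR) and CCAAT box letters known from G2 and mitosis promoters. The Cdk1 window also holds 1 match to the E2F letters (TTTCGCGC), in capitals too, and is the 1 mitosis window of 29 that does.
Cdc6: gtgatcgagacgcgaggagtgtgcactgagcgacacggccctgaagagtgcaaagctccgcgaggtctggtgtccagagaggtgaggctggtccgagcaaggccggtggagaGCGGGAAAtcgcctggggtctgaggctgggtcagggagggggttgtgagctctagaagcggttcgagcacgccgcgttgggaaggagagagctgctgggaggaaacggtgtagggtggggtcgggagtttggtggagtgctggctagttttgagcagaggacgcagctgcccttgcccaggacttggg
Cdt1: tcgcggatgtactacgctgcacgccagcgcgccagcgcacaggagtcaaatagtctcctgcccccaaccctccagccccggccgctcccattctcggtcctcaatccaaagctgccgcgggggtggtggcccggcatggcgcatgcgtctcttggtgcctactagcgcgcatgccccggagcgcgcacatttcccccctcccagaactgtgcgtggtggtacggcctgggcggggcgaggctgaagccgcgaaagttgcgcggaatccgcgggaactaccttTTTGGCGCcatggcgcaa
Bub1: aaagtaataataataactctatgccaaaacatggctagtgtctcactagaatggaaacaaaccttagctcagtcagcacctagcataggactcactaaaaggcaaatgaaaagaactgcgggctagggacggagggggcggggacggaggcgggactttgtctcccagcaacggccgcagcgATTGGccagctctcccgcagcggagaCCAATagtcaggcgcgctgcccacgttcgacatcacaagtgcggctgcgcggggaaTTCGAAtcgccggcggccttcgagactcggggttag
Cdk1: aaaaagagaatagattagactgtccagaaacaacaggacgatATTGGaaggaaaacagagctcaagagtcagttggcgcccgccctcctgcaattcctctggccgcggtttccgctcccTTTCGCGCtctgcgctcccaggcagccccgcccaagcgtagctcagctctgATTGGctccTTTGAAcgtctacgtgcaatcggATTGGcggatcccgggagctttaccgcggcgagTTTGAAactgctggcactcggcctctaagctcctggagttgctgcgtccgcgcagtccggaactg
The E2F letters searched on both strands were TTTGGCGC, TTTGCCGC, TTTCGCGC and TTTCCCGC. They stood in 3.21% of the 18109 windows of all tested genes, in 14 of 39 windows of DNA replication genes (35.9%) and in 1 of 29 windows of mitosis genes (3.45%, that of Cdk1). Among windows of genes higher with the block the share was 8.26%, and among those of lower genes 1.29%. The CHR letters TTTGAA or TTCGAA stood in 15.1% of all windows, in 82.8% of mitosis windows and in 20.5% of replication windows. CCAAT stood in 37.4% of all windows, 82.8% of mitosis windows and 61.5% of replication windows. A match describes the letters only, and windows were found for 14452 of the tested genes.

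Genes of mitosis rose as a group too. Bub1, a kinase of the spindle checkpoint, was at 8.61 and 7.39 with anti-CD40 and at 6.38, 5.07 and 4.40 with PBS. Again both anti-CD40 arrays were above all PBS arrays, with replicate 1 the highest on each side. Bub1 rose by 2.58 ± 0.35 (adjusted p = 0.000113, and 0.13 without the block). Cdk1, the kinase that starts mitosis, rose by 2.10 ± 0.36, the cyclin gene Ccna2 by 2.03 ± 0.28 and the spindle motor gene Kif20a by 2.08 ± 0.35. Of 33 measured mitosis genes 29 rose (87.9%, against 7.59% of all genes) and 0 fell with the block. None passed without it, and the median was 1.502 (1.345 and 1.597 in the pairs). Outside this list Trip13, a checkpoint ATPase, and the kinetochore genes Cenpk and Cenph rose by 2.61 ± 0.37, 2.39 ± 0.40 and 2.27 ± 0.25, and these passed in both fits.

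Genes that control entry into the cycle rose less uniformly. Ccne2, an E cyclin, was at 8.71 and 7.32 with anti-CD40, against 6.10, 3.62 and 3.98 with PBS. The lowest anti-CD40 array lay above the highest PBS array, and Ccne2 rose by 3.22 ± 0.37 (adjusted p = 2.98e-05, and 0.16 without the block). The other E cyclin gene Ccne1 rose by 1.99 ± 0.23. Cdk6, a kinase of the early G1 phase, was at 8.84 and 8.26 against 5.67, 6.11 and 7.03 and passed in both fits (2.46 ± 0.30). A second, dim probe set of Cdk6 had a difference of -0.49. Skp2, which targets the cycle inhibitor p27 for degradation, rose by 1.75 ± 0.27. In this list 9 of 20 measured genes rose (45%, against 7.59% of all genes) and 1 fell (against 2.92% of all genes). The gene that fell was the D cyclin gene Ccnd2 (-0.94 ± 0.18), named after its value was seen. The median of the list was 0.475. Mxd4 and Hbp1, which encode transcriptional repressors that oppose proliferation, fell by 1.69 ± 0.25 and 1.63 ± 0.17, Hbp1 in both fits.

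**Figure D2:**
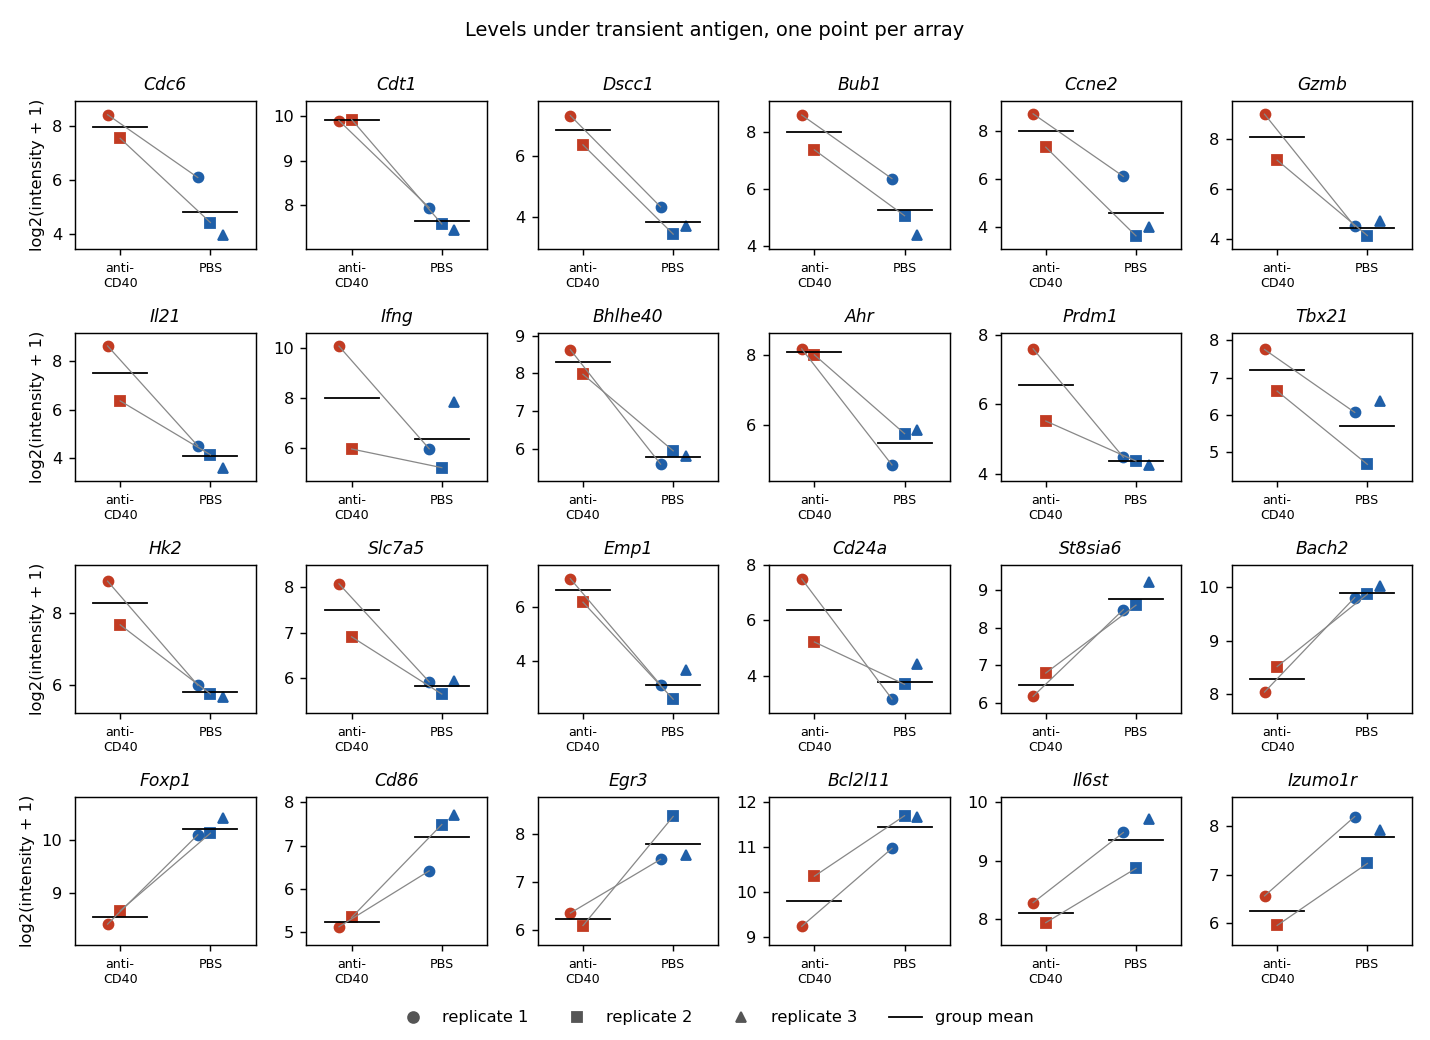
Log2(intensity + 1) of 24 genes in the 2 anti-CD40 arrays (red, left) and the 3 PBS arrays (blue, right) under transient antigen, with the symbol giving the replicate, grey lines joining replicates of the same number and bars at the group means. The groups do not overlap in any gene shown except Ifng, where anti-CD40 replicate 2 (5.97) lies below PBS replicates 1 and 3. Many of these genes were chosen for separate groups, so their separation here is a description and no check.

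Among effector genes the largest single change of the comparison was in Gzmb, which encodes the cytotoxic protease granzyme B. It was at 8.98 and 7.15 with anti-CD40, against 4.51, 4.14 and 4.71 with PBS. The PBS arrays lay close together near the median probe set, while the anti-CD40 arrays were well above it and differed from each other. Gzmb rose by 3.93 ± 0.33 (adjusted p = 3.05e-06, and 0.0413 without the block). Il21, the cytokine of follicular helper and effector T cells, was at 8.63 and 6.36 against 4.50, 4.13 and 3.59. It rose by 3.55 ± 0.39 and passed in both fits. Ifng, which encodes interferon gamma, was at 10.08 and 5.97 against 5.98, 5.23 and 7.86. Here the groups overlapped: the difference was 4.10 in the replicate 1 pair and 0.75 in the replicate 2 pair, and the call (2.24 ± 0.44, adjusted p = 0.0023) was lost without the block (adjusted p = 0.88).

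Transcription factor genes of effector cells rose beside them. Tbx21, the factor of Th1 cells, was at 7.75 and 6.64 with anti-CD40 and at 6.06, 4.67 and 6.37 with PBS. The groups did not overlap but came close, and Tbx21 passed only with the block (1.86 ± 0.31, adjusted p = 0.000619, against 0.596 without). Prdm1, which encodes the repressor Blimp-1, was at 7.60 and 5.52 against 4.47, 4.37 and 4.25. It rose by 2.18 ± 0.42, also only with the block. Bhlhe40, a factor that sustains cytokine production, was at 8.63 and 7.98 against 5.61, 5.96 and 5.81, with narrow and separate groups, and rose by 2.56 ± 0.31 in both fits. Ahr, the aryl hydrocarbon receptor, was at 8.16 and 8.00 against 4.85, 5.75 and 5.84 and rose by 2.60 ± 0.34, again in both fits, while its second, dimmer probe set had a difference of 0.01. Maf, a factor of Il21-producing cells, rose by 1.36 ± 0.32 with the block. The granule gene Nkg7 rose by 2.31 ± 0.38, and Gzma, the gene of granzyme A, by 1.51 ± 0.37, both with the block only. In Gzma the groups overlapped, at 6.31 and 5.58 with anti-CD40 against 4.92, 4.42 and 6.06 with PBS.

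Of 27 measured Th1 effector genes 11 rose (40.7%, against 7.59% of all genes) and 1 fell with the block (against 2.92% of all genes). The median was 0.56, and 2 rose without the block. The member that fell was Fasl, the death ligand, at 6.05 and 5.66 with anti-CD40 and 6.71, 7.23 and 7.67 with PBS (-1.17 ± 0.26). Il18rap, a chain of the interleukin 18 receptor, rose by 1.07 ± 0.24. Of 13 measured Th2 and Th17 genes 4 rose (30.8%) and 0 fell, and the median was 0.06. The others beside Ahr were Rora (1.32 ± 0.36, with overlapping groups), the chemokine receptor gene Ccr6 (1.23 ± 0.26) and Il1r1 (0.72 ± 0.19). In the follicular helper list of 18 measured genes 3 rose (16.7%, Il21, Maf and Tox2) and 2 fell (Tox and Il6ra), with a median of -0.03. Bcl6, the defining factor of that programme, was at 6.04 and 5.83 with anti-CD40, against 5.62, 6.13 and 6.48 with PBS, with overlapping groups and a difference of -0.01 ± 0.23. Among 29 measured genes of a fixed set of T cell genes 9 rose (31%) and 2 fell with the block, and 2 rose without it. The 18 that did not pass had differences from -0.54 to 0.65 and a smallest adjusted p of 0.0601 (Il2ra), and included the checkpoint genes Pdcd1 (0.48), Ctla4 (0.19) and Lag3 (0.11).

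The trafficking and adhesion list included several of the largest increases. Emp1, which encodes an epithelial membrane protein, was at 7.06 and 6.18 with anti-CD40, against 3.10, 2.56 and 3.66 with PBS. The PBS arrays were below the median probe set and both anti-CD40 arrays far above it. Emp1 rose by 3.69 ± 0.33 in both fits, while a second probe set for it had a difference of -0.09. The calcium-binding protein gene S100a4 was at 6.87 and 7.33 against 4.21, 4.92 and 5.31 and rose by 2.53 ± 0.22 in both fits. Its neighbour in function S100a6 was at 9.20 and 10.77 against 7.10, 8.17 and 5.82, and rose by 2.89 ± 0.63 with the block only. Plac8 rose by 2.41 ± 0.39 in both fits. Of 40 measured trafficking and adhesion genes 11 rose (27.5%, against 7.59% of all genes) and 3 fell with the block (against 2.92% of all genes). The median was only 0.05, and 4 rose without the block. The 3 that fell were Cd44 (-0.86 ± 0.27), an adhesion receptor usually read as an activation marker, and the integrin chains Itgb3 (-1.27 ± 0.24) and Itga6 (-0.72 ± 0.17), the integrins being named after their values were seen.

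Some further large increases belonged to none of these groups. Cd24a, a glycoprotein of immature and activated lymphocytes, was at 7.50 and 5.22 with anti-CD40, against 3.16, 3.69 and 4.44 with PBS, and rose by 2.98 ± 0.41 with the block only. Fabp5, a fatty acid carrier, was at 9.38 and 8.14 against 6.36, 5.47 and 6.65 and rose by 2.94 ± 0.31. In both genes the anti-CD40 arrays lay above all PBS arrays, and replicate 1 was the higher of them. Ifitm3, an interferon-induced membrane protein gene, was at 7.03 and 6.28 against 3.65, 3.39 and 4.04 (3.56 ± 0.59, with the block only). The interferon-stimulated list did not follow it. There 1 of 35 measured genes rose (2.86%, against 7.59% of all genes), Gbp3 (0.82 ± 0.20). In the same list 3 fell (against 2.92% of all genes), Isg20, Irf9 and Samhd1 (-0.83 to -0.65). The list's median was -0.22 but -0.74 in the replicate 1 pair and 0.18 in the replicate 2 pair.

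Genes of growth metabolism rose in several lists. In glycolysis, Hk2, the inducible hexokinase, was at 8.88 and 7.67 with anti-CD40, against 5.99, 5.74 and 5.67 with PBS. The PBS arrays lay close together and both anti-CD40 arrays far above them, and Hk2 rose by 2.45 ± 0.34 in both fits. Tpi1 rose by 2.46 ± 0.30, Pkm by 1.498 ± 0.22 and Pgam1 by 1.47 ± 0.22, all 3 with the block only. Of 19 measured glycolysis genes 9 rose (47.4%, against 7.59% of all genes) and 1 fell with the block (against 2.92% of all genes). The median was 0.58. The one that fell was Pdk1 (-0.85 ± 0.17), which restrains the oxidation of pyruvate in mitochondria and was named after its value was seen. Of 44 oxidative phosphorylation genes 9 rose (20.5%) and 0 fell (median 0.38), led by the cytochrome c gene Cycs (1.29 ± 0.24), Sdhd and Atp5b. Of 20 cholesterol synthesis genes 9 rose (45%) and 0 fell (median 0.69), led by Idi1 (2.02 ± 0.24) and the squalene epoxidase gene Sqle (1.72 ± 0.22).

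Uptake and protein synthesis genes moved the same way. Slc7a5, which carries large neutral amino acids, was at 8.07 and 6.91 with anti-CD40, against 5.92, 5.65 and 5.93 with PBS, and rose by 1.73 ± 0.26 with the block. The lactate carrier gene Slc16a1 rose by 1.73 ± 0.21 in both fits, and the transferrin receptor gene Tfrc by 1.49 ± 0.32. Of the 17 measured transporters 4 rose (23.5%, against 7.59% of all genes) and 0 fell (median 0.45). Ribosome assembly genes rose in 21 of 35 (60%) and fell in 0, with a median of 0.76 (1.12 and 0.48 in the pairs). Nop58, a core protein of small nucleolar ribonucleoproteins, was at 9.06 and 7.85 against 6.70, 6.24 and 5.74 and rose by 1.90 ± 0.23, beside Nolc1 (1.91 ± 0.26) and Gnl3 (1.55 ± 0.28). Of 27 genes of folding and stress in the endoplasmic reticulum 14 rose (51.9%) and 0 fell (median 0.67), among them Creld2 (1.46 ± 0.22) and Pdia6 (1.20 ± 0.23). Myc, a driver of such programmes, was at 5.76 and 5.49 against 5.12, 4.99 and 4.48. Its arrays did not overlap, but the difference of 0.53 ± 0.23 did not pass (adjusted p = 0.184).

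**Figure D3:**
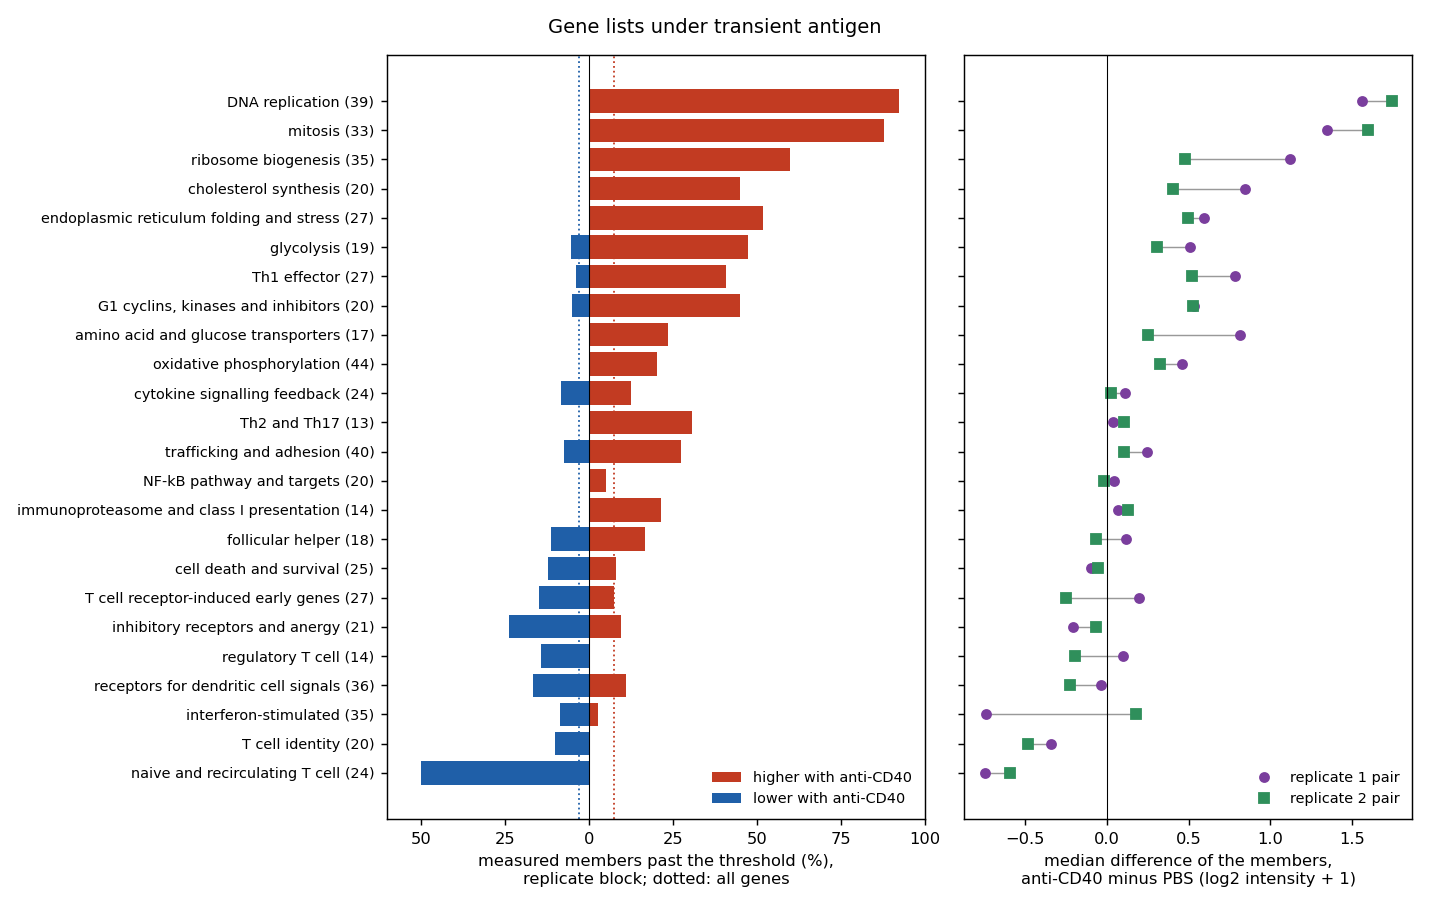
Left, the share of the measured members of each gene list (number in brackets) that rose (red) or fell (blue) with anti-CD40 in the fit with the replicate block, with dotted lines at the shares over all genes (7.59% and 2.92%). Right, the median difference of the members in the replicate 1 and replicate 2 pairs, on opposite sides of 0 for interferon-stimulated genes (-0.74 and 0.18).

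The decreases were led by genes of resting and recirculating T cells. St8sia6, a sialyltransferase gene, was at 6.17 and 6.79 with anti-CD40, against 8.49, 8.61 and 9.24 with PBS. The groups were separated by more than their own width, and St8sia6 fell by 2.26 ± 0.27 (adjusted p = 3.6e-05, and 0.00982 without the block). Bach2, a repressor of effector genes, was at 8.03 and 8.51 against 9.81, 9.87 and 10.03 and fell by 1.59 ± 0.19. Foxp1, a transcription factor that keeps naive T cells quiescent, was at 8.41 and 8.67 against 10.10, 10.13 and 10.42 and fell by 1.52 ± 0.21. These 3 and Tdrp (-1.99 ± 0.24) passed in both fits. Of 24 measured naive and recirculating genes 0 rose and 12 fell with the block, against 2.92% of all genes, and 4 fell without it. The list was chosen with earlier results of these data known, so the count is a description and no test. The median was -0.63 (-0.75 and -0.59 in the pairs). The homing receptor gene Ccr7 (-0.54 ± 0.23, adjusted p = 0.179), the cytokine receptor gene Il7r (-0.50 ± 0.30, adjusted p = 0.402) and the trafficking factor gene Klf2 (-0.19 ± 0.24) did not pass.

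Other decreases that passed in both fits were those of Ephx1, an epoxide hydrolase gene, at 6.01 and 6.56 with anti-CD40 and 8.07, 8.85 and 8.95 with PBS (-2.23 ± 0.26), and of the transcription factor gene Zbtb20 (-1.68 ± 0.25). Cd86, best known as a costimulatory ligand of antigen-presenting cells, was at 5.12 and 5.33 against 6.41, 7.49 and 7.70. The groups did not overlap, PBS replicate 1 was the lowest of its group, and Cd86 fell by 2.00 ± 0.30 in both fits. Several genes passed only with the block, among them the glutathione transferase gene Mgst2 (-1.76 ± 0.24) and the lipid exporter gene Abca1 (-1.91 ± 0.31), whose anti-CD40 arrays lay below the median probe set.

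The early genes of T cell receptor signalling that fell included the Egr family. Egr3, a transcription factor of the receptor's calcium and diacylglycerol signals, was at 6.35 and 6.09 with anti-CD40, against 7.48, 8.37 and 7.56 with PBS. Both anti-CD40 arrays were below all PBS arrays, and Egr3 fell by 1.79 ± 0.34 with the block (adjusted p = 0.0015, and 0.201 without). Its relatives Egr2 (-1.05 ± 0.24) and Egr1 (-0.92 ± 0.19) fell as well, as did Cd44. Tnfrsf4, the gene of the costimulatory receptor OX40, was at 7.82 and 7.81 against 6.10, 7.18 and 6.56 and rose by 1.20 ± 0.31. The other early gene that rose was the transcription factor gene Irf8 (0.88 ± 0.22), named after its value was seen. In all 2 of 27 members rose (7.41%, against 7.59% of all genes) and 4 fell (against 2.92% of all genes). Cd69 (-0.41), Irf4 (0.63), Il2 (-0.32) and Il2ra (0.57) did not pass. The median of the list was -0.05.

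Receptors through which T cells read dendritic cell signals also moved both ways. Of 36 measured receptors 4 rose (11.1%, against 7.59% of all genes) and 6 fell with the block (against 2.92% of all genes). None passed without it, and the median was -0.21. The risers were Tnfrsf4, both chains of the interleukin 18 receptor and Il1r1. The largest decreases were in the interleukin 6 receptor chains, with Il6ra at 6.16 and 6.62 with anti-CD40, against 7.05, 7.75 and 7.61 with PBS (-1.21 ± 0.30). Il6st, the shared signalling chain, was at 8.28 and 7.94 against 9.48, 8.87 and 9.70 (-1.14 ± 0.20). In neither gene did the groups overlap. The remaining decreases, in Ifnar1, Tgfbr2, Cd27 and Il27ra, were between -0.94 and -0.81 and were named after their values were seen. Il12rb2, which encodes the inducible chain of the interleukin 12 receptor, was at 3.81 and 4.67 against 3.91, 4.39 and 3.45, with overlapping groups and no call (0.24 ± 0.22).

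Of 21 measured inhibitory receptor and anergy genes 2 rose (9.52%) and 5 fell with the block, and the median was -0.09. Over all genes 7.59% rose and 2.92% fell. Izumo1r, the gene of folate receptor 4, which marks anergic and regulatory T cells, was at 6.56 and 5.94 with anti-CD40, against 8.20, 7.23 and 7.92 with PBS. The groups did not overlap, and it fell by 1.45 ± 0.20 with the block. Egr2 and Egr3, which are also known from anergy, and the diacylglycerol kinase genes Dgka (-0.81 ± 0.19) and Dgkz (-0.95 ± 0.21) were the other decreases, the kinases named after their values were seen. Havcr2, the gene of the inhibitory receptor TIM-3, was at 5.82 and 4.70 against 3.68, 3.32 and 3.32 and rose by 1.84 ± 0.29, from PBS levels below the median probe set. Ndrg1, another gene linked to anergy, rose by 1.35 ± 0.30. Of 14 regulatory T cell genes 0 rose and 2 fell, Izumo1r and Gpr83 (-0.90 ± 0.23), and Foxp3, the defining factor, was below the median probe set in all 5 arrays.

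In the list of cell death and survival 2 of 25 genes rose (8%) and 3 fell. Over all genes 7.59% rose and 2.92% fell, so the share that rose was near that of all genes. Bcl2l11, which encodes the pro-death protein Bim, was at 9.24 and 10.36 with anti-CD40, against 10.98, 11.71 and 11.67 with PBS, and fell by 1.61 ± 0.25 (adjusted p = 0.000284, and 0.0683 without the block). The survival gene Bcl2 fell by 0.66 ± 0.19 and Fasl as given above. The other probe sets of Bcl2, at mean log2 levels of 4.54 to 6.91, had smaller differences, from -0.24 to 0.15, so the fall rests on its brightest probe set. Pmaip1, the gene of the pro-death protein Noxa, was at 7.68 and 5.56 against 5.82, 4.19 and 4.96, with overlapping groups, and rose by 1.76 ± 0.26. Bid rose by 0.89 ± 0.19, also with overlapping groups. The list's median was -0.04. Among 24 genes of cytokine signalling feedback 3 rose (12.5%), the kinase gene Pim1 (1.36 ± 0.25), the phosphatase gene Dusp4 (1.84 ± 0.43) and Spred1 (0.86 ± 0.20). In the same list 2 fell, Dusp6 (-1.05 ± 0.22) and Jak1 (-0.59 ± 0.18), the last named after its value was seen. The groups overlapped in Pim1, Dusp4 and Jak1. Of 20 NF-kB pathway and target genes 1 rose (Icam1, 0.72 ± 0.22, with overlapping groups) and 0 fell, near or below the shares over all genes. Of 14 genes of the immunoproteasome and class I presentation 3 rose (Pdia3, Calr and Erap1) and 0 fell, the first 2 being general folding genes of the endoplasmic reticulum.

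Of 20 measured T cell identity genes 0 rose and 2 fell with the block (Cd5, -0.76 ± 0.19, and Bcl11b, -0.62 ± 0.17), 15 were lower in both pairs, and the median was -0.48. Their summed linear intensity was 14308 to 14440 with anti-CD40 and 18925 to 20395 with PBS. Of 18 B cell markers 1 rose (Cd22, 0.72 ± 0.22), their sum was 641 to 771 with anti-CD40 and 566 to 729 with PBS, and 10 with anti-CD40 and 12 with PBS had a group mean above the median probe set, among them the class II gene H2-Aa (5.20 and 6.14 against 5.41, 6.50 and 6.27). The defining markers Cd79a and Pax5 were below it in all 5 arrays. Of 8 plasma cell markers 2 rose, Prdm1 and Xbp1, which T cells also use, with sums of 595 to 797 and 387 to 404. Linear sums weigh the brightest member most, here Xbp1 (8.99 and 8.70 against 7.99, 7.87 and 8.13), and the median difference of the list was -0.08. Of 27 dendritic cell and macrophage markers 0 rose and 1 fell (Cd86), with sums of 2634 to 3130 and 3958 to 4118, and 15 with anti-CD40 and 17 with PBS were above the median probe set. Among these was Ctss, the gene of the protease cathepsin S (10.89 and 11.19 against 11.72, 11.51 and 11.67), while Itgam and Cd14 were below the median probe set in all 5 arrays. Ctss was by far the brightest member and dominated the sums, and the median difference of the list was -0.06. Of 13 NK and CD8 T cell markers 2 rose, Nkg7 and Gzma, with sums of 1369 to 1616 and 549 to 666, and 7 in each group were above the median probe set. Among these was Klrd1, a lectin-like receptor gene (7.55 and 8.17 against 7.44, 7.29 and 6.91), while Cd8b1 and Ncr1 were below the median probe set in all 5 arrays. The brightest member was Nkg7 (9.82 and 10.06 against 8.15, 7.39 and 7.75), which weighed most in the sums, and the median difference of the list was -0.055. Granulocyte (9), erythrocyte (5) and stromal and endothelial (14) markers had 0 calls. Their sums were 137 to 202, 107 to 140 and 241 to 311 with anti-CD40, against 153 to 201, 107 to 154 and 272 to 324 with PBS. Of 18 dissociation and immediate early genes 2 rose (Hsp90aa1 and Hspa1b) and 3 fell (Btg2, Egr1 and Zfp36), with sums of 5452 to 7263 and 5281 to 7776. Over all genes 7.59% rose and 2.92% fell. The part of these markers in the results was not tested.

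In the other antigen regimes few or no genes passed for the same antibody. With no antigen limma called 0 genes without a block (317 at an unadjusted p under 0.05) and 1 with it (0.0055%), the chemokine gene Ccl5, which rose by 1.505 ± 0.22 and is named after its value was seen. Under transient antigen its difference was -0.55 (adjusted p = 0.145). With persistent antigen 0 passed in either fit, with 110 and 484 at an unadjusted p under 0.05. The 1380 genes higher under transient antigen with the block had, over replicates 1 and 2, a median difference of 1.02 under transient antigen, against 0.00 without antigen and 0.21 under persistent antigen. For the 532 lower genes these medians were -0.79, -0.07 and -0.16. The first value of each set is how the genes were chosen and is given as a description. Of the 532 lower genes 38% were lower in both of these pairs without antigen, against 23.9% of all genes. Under persistent antigen 44% were, against 22.4% of all genes. Of the 1380 higher genes 28.8% and 28.4% were higher in both pairs, against 28.2% and 24.3% of all genes.

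The difference between regimes was tested as an interaction. Without a block 0 genes passed for transient against no antigen and 0 for transient against persistent antigen, with 895 and 628 at an unadjusted p under 0.05. With the block 672 genes (3.69%) passed for transient against no antigen, 562 with the larger difference under transient antigen (3.09%) and 110 with the smaller (0.605%). Against persistent antigen 326 passed (1.79%), 276 and 50 (1.52% and 0.275%). After cyclic loess scaling the first of these counts split into 504 and 269, and after quantile normalization into 450 and 264. The blocked counts fell to 99 and 31 without anti-CD40 replicate 1 under transient antigen. They were 399 and 217 without PBS replicate 1, 414 and 148 without PBS replicate 3, and 171 for the second term without PBS replicate 2. The count against no antigen was 107 without anti-CD40 replicate 2 of no antigen. The count against persistent antigen was 137 and 37 without PBS replicates 1 and 3 of persistent antigen, and 48 and 214 without anti-CD40 replicates 1 and 3 of persistent antigen. Of the 672 genes 652 and of the 326 genes 325 were also called for the effect under transient antigen, which makes up 34.1% and 17% of the 1912. DNA replication genes were among them in 31 of 39 (against no antigen) and 28 of 39 (against persistent antigen), mitosis genes in 12 and 18 of 33, and ribosome assembly genes in 14 and 1 of 35, each with the larger difference under transient antigen. Of 24 naive and recirculating genes 5 and 6 had the more negative difference. Th1 effector genes passed with the larger difference in only 2 and 3 of 27, and 1 had the smaller against no antigen. Their median difference was 0.26 without antigen, 0.56 under transient and 0.00 under persistent antigen.

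**Figure D4:**
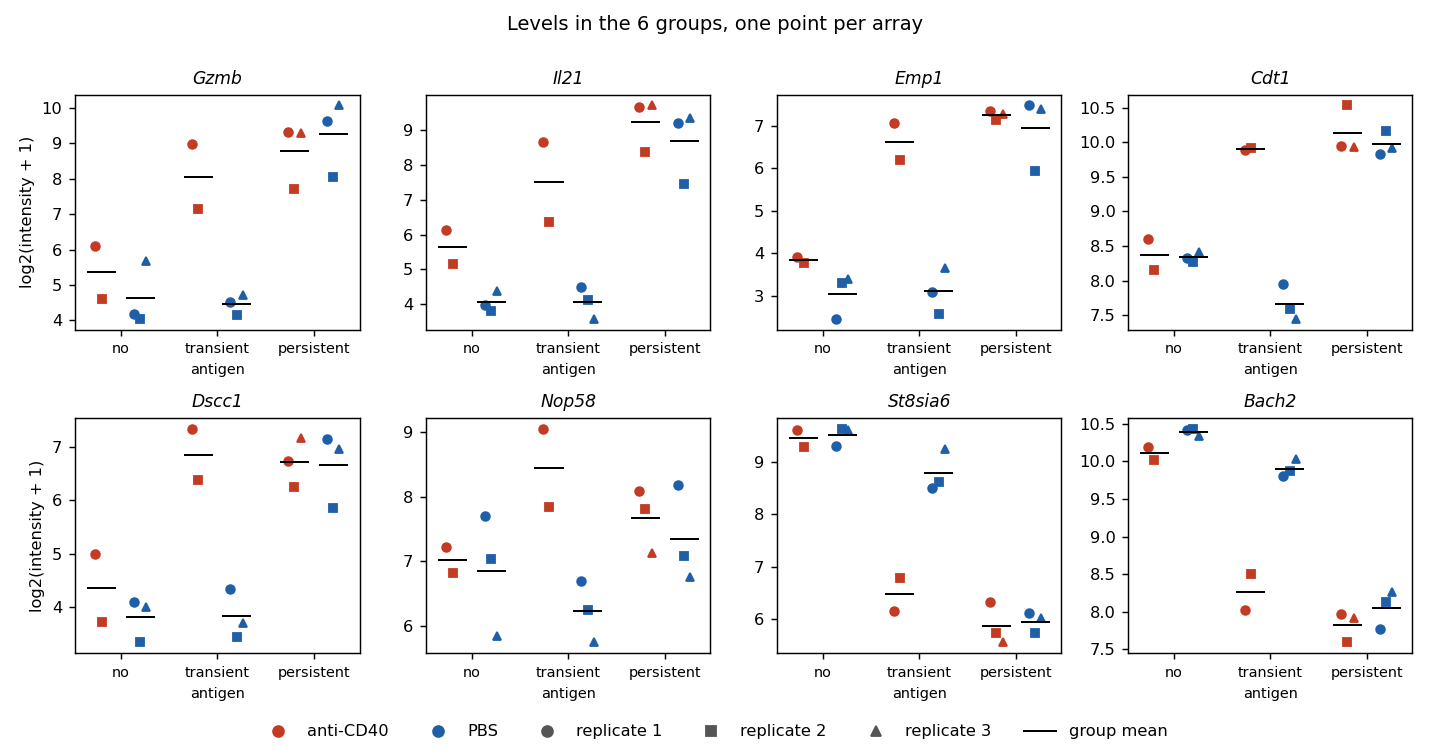
Log2(intensity + 1) of 8 genes in all 16 arrays, grouped by antigen (no, transient, persistent) with anti-CD40 (red) left of PBS (blue), symbols giving the replicate and bars the group means. Gzmb, Emp1, Cdt1 and Dscc1 are high with anti-CD40 and low with PBS under transient antigen and high in both groups under persistent antigen.

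Individual genes show the shape of these interactions. Gzmb without antigen was at 6.11 and 4.61 with anti-CD40 and at 4.19, 4.04 and 5.67 with PBS. Under transient antigen its values were those given above. Under persistent antigen it was at 9.32, 7.72 and 9.29 with anti-CD40 and at 9.64, 8.05 and 10.07 with PBS. The anti-CD40 difference under transient antigen therefore exceeded that under persistent antigen by 4.41 ± 0.44 (adjusted p = 5.27e-05) and that without antigen by 2.88 (adjusted p = 0.0033), both with the block only. Cdt1 was at 8.60 and 8.15 against 8.33, 8.27 and 8.41 without antigen. Under persistent antigen it was at 9.94, 10.53 and 9.93 against 9.84, 10.16 and 9.92. In both of these regimes the groups overlapped, and the differences from transient antigen were 2.20 ± 0.30 and 2.03 ± 0.28. Il21 differed from persistent antigen (2.98, adjusted p = 0.0087) but not past the threshold from no antigen (1.85, adjusted p = 0.067), where its own difference was 1.70 (adjusted p = 0.78). St8sia6 was at 9.60 and 9.28 against 9.29, 9.62 and 9.60 without antigen, and at 6.34, 5.74 and 5.57 against 6.12, 5.74 and 6.02 under persistent antigen. Its terms were -2.23 and -2.18 (adjusted p = 0.0037 and 0.0056).

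**Figure D5:**
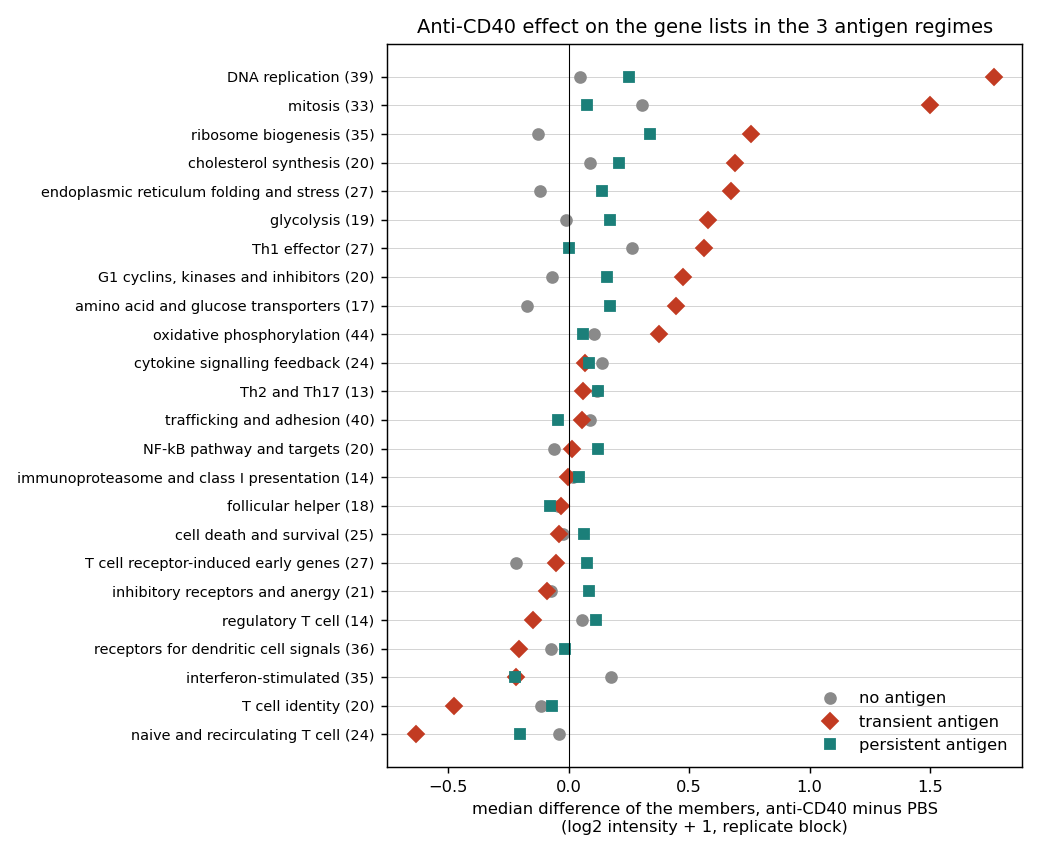
Median anti-CD40 minus PBS difference (log2 intensity + 1, replicate block) of the measured members of each gene list with no antigen (grey circles), transient antigen (red diamonds) and persistent antigen (green squares). For DNA replication the medians are 0.05, 1.76 and 0.25, and for naive and recirculating T cell genes -0.04, -0.63 and -0.20.

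The levels reached with anti-CD40 under transient antigen can be set beside those of the other groups, as a description over all measured members of a list. The mean log2 intensity of the 39 DNA replication genes was 8.84 and 8.18 with anti-CD40 and 7.32, 6.49 and 6.63 with PBS under transient antigen. It was 7.42 and 6.16 against 7.06, 6.19 and 6.76 without antigen, and 8.76, 8.54 and 8.65 against 8.80, 8.00 and 8.42 under persistent antigen. Both anti-CD40 arrays of transient antigen lay above all arrays without antigen and above the lowest PBS array of persistent antigen, and all PBS arrays of transient antigen lay below all arrays of persistent antigen. The 24 naive and recirculating genes were at 7.77 and 7.60 against 8.57, 8.24 and 8.79 under transient antigen. Under persistent antigen they were at 7.50, 7.03 and 7.38 against 7.52, 7.20 and 7.53, so that both anti-CD40 arrays under transient antigen remained above all 6 arrays of persistent antigen. The 35 ribosome assembly genes were at 8.45 and 7.47 against 7.27, 6.89 and 7.22 under transient antigen. Their levels were 7.69, 7.54 and 7.68 against 7.72, 6.89 and 7.31 under persistent antigen, and 7.57 and 6.78 against 7.63, 6.98 and 7.36 without antigen. Replicate 1 of transient antigen with anti-CD40 was the highest of these arrays, while replicate 2 lay within the range of the arrays without antigen.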

How the data were processed

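RNA of sorted T cells was amplified in 2 rounds and hybridised to 16 Affymetrix mouse arrays with 45101 probe sets. The deposited values are intensities on a linear scale, made by the authors with RMA, per the submitters' processing notes. Depth does not apply to arrays, and their number limits the precision. They were used here as log2(intensity + 1). Of the probe sets 34945 had 1 gene symbol in the platform annotation, 932 had several and 9160 were not found in it, and the probe set with the highest mean over all arrays stood for its gene, which gave 18193 genes. For 16 of 76 named genes with several probe sets another one had the opposite sign. Group means of 6 groups were fitted with limma 3.58.1 (R 4.3.3) with an intensity trend, with and without the replicate number as a block, p-values were adjusted after Benjamini and Hochberg over all genes, and 0.05 was the threshold. Interactions were differences of the anti-CD40 differences between antigen regimes. The pairing comes from the replicate numbers of the titles. The 36 pairs of arrays from different groups with the same number had correlated deviations from their group means (r 0.481 to 0.806, median 0.685). Of 16 arrays 16 correlated best with their own number. Pairs with different numbers had a median of -0.525. Deviations cancel out within a group, so this negative value follows from the positive ones and is no further support. The fit was tested on simulated data. The members and lists were chosen with earlier results of these data known.

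Named genes are, per fit, the 12 largest increases and 12 largest decreases past the threshold with separate groups (with the block, with the same sign in both pairs), if the mean of the higher group exceeded the median probe set. These exclude clone names, antigen receptor segments and sex-linked genes. Added were up to 4 called members of each list, 30 fixed T cell genes (29 measured), called and bright members of marker lists, and the 6 smallest p of each interaction. The lists were all those given with counts in the report, with 650 of 708 distinct genes measured, and a sex-linked list of 5 genes in which 0 were called. Alternatives were other scalings, a pseudocount of 16, the mean of probe sets, dim genes left out, no trend, array weights, fewer arrays and each of the 16 arrays left out in turn, those of the other regimes being added after seeing the data. Promoter windows were searched for letters on both strands.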

Additional observations from a re-analysis of the deposited data

Results flagged for a closer look

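The anti-CD40 difference itself differed between antigen regimes, by the interaction term of the limma fit with the replicate block. It did so for 672 genes between transient and no antigen and for 326 between transient and persistent antigen, against 0 for both without the block. Against no antigen the smallest p-values were those of Dscc1 (2.49 ± 0.30), Cenph (2.66 ± 0.34), Orc6 (2.23 ± 0.29), Ndc1 (2.47 ± 0.33), Cdt1 (2.2 ± 0.30) and Pole2 (2.01 ± 0.29), on the log2 scale ± SE. Dscc1, for example, was higher with anti-CD40 by 3.01 and 2.94 in the pairs of transient antigen, by 0.90 and 0.38 without antigen, and by -0.41, 0.40 and 0.22 under persistent antigen. Against persistent antigen they were those of Dscc1 (3.07 ± 0.29), Gzmb (4.41 ± 0.44), S100a4 (2.59 ± 0.29), Emp1 (3.37 ± 0.44), Cdt1 (2.03 ± 0.28) and Ttk (1.83 ± 0.26). Gzmb was higher by 4.47 and 3.0005 in the pairs of transient antigen and lower in all 3 pairs of persistent antigen (-0.32, -0.33 and -0.78). No group holds enough arrays for a check of single outlying arrays.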

How the results depend on the processing

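The limma count of 116 genes without a block became 1912 with the replicate block, 209 without the intensity trend, 185 with genes above the median probe set only, 197 with probe sets averaged per gene, 339 after cyclic loess, 266 after quantile normalization and 57 with array weights. It was 0 with only the 5 arrays compared, 831 with replicates 1 and 3 only and 0 with replicates 2 and 3 only, the last pair of settings chosen after seeing the data, and 0 to 157 with any of the 16 arrays left out. A group left with 1 array was assumed to vary like the others. The interaction counts of 0 and 0 became 672 and 326 with the replicate block, 2 and 35 with replicates 1 and 3 only, and 5 for the second with array weights. With an array left out they were 0 to 1 and 0 to 2. With the block kept, the count of 1912 was 553 to 2153 with an array left out and 328 with replicates 2 and 3 only. The count of 672 was 99 to 879 with an array left out (399 and 414 without PBS replicates 1 and 3 of transient antigen, 107 without anti-CD40 replicate 2 of no antigen) and 129 with replicates 2 and 3 only. The count of 326 was 31 to 449 with an array left out (217, 171 and 148 without PBS replicates 1, 2 and 3 of transient antigen, 137 and 37 without PBS replicates 1 and 3 and 48 and 214 without anti-CD40 replicates 1 and 3 of persistent antigen) and 22 with replicates 2 and 3 only, and 890 with array weights and 899 with replicates 1 and 3 only. The split of 276 and 50 became 320 and 88 after cyclic loess and 209 and 63 after quantile normalization. Fewer arrays leave fewer residual degrees of freedom, and otherwise the cause was not tested. No result reversed. Of 29 named genes called without the block, all 29 calls were lost without anti-CD40 replicate 1, with replicates 2 and 3 only and with only the 5 arrays compared. Of 123 called with the block, 44 were lost without anti-CD40 replicate 1, 55 with replicates 2 and 3 only, and 18 or fewer under any other setting. Signal near the median probe set (4.37) limits the size of changes in dim genes such as Dscc1 and Emp1.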

Other observations

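Further gene families, chosen after values of these data were seen, are given as counts with the replicate block and are no test. Of 23 measured nucleotide synthesis genes 16 were called higher and 0 lower, with a median difference of 1.16 under transient antigen, against -0.05 without antigen and 0.25 under persistent antigen. Of 19 measured cytosolic aminoacyl-tRNA synthetases, which charge tRNAs with amino acids, 14 were higher and 0 lower (median 0.91). Of 12 genes of serine and one-carbon metabolism, which supplies carbon for nucleotides, 8 were higher and 0 lower (median 0.88). Of the 9 subunits of the cytosolic chaperonin, a folding machine for actin and tubulin, 7 were higher and 0 lower (median 0.81).

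Mitochondrial and cytosolic ribosomal proteins stood apart from each other. Of 76 mitochondrial ribosomal protein genes 29 were higher and 0 lower, with a median of 0.53 (0.78 and 0.38 in the pairs). Of 45 cytosolic ribosomal protein genes 2 were higher and 1 lower, with a median of -0.13 (-0.10 and -0.14 in the pairs). Of 14 subunits of the 20S proteasome 5 were higher and 0 lower (median 0.58). Over all genes 7.59% were called higher and 2.92% lower.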
